A study of Mus musculus with 2 samples.

Results

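Clusters 0 and 2 were the 2 large clusters of stromal cells that both libraries shared. They were selected by the cluster number that the authors deposited for each cell, and they held 3684 of the 17813 cells of the series. Cluster 0 comprised 505 mdx and 1565 cKO cells and cluster 2 comprised 269 mdx and 1345 cKO cells. Both libraries came from dystrophin-deficient mdx male mice on the BL/10 background, aged 3 months, with 3 mice per genotype stated and forelimb, hindlimb and diaphragm muscles pooled. The cKO mice also carried Spp1 with exons 2 and 3 flanked by loxP sites and Lyz2Cre, a Cre recombinase expressed in myeloid cells, so the deletion was aimed at macrophages and related cells and not at the stromal cells described here. The mdx mice served as the Spp1-sufficient control, although their genotype label reads as wild type, and whether they carried the floxed allele is not given in the sources used here. Each genotype gave 1 library of mononucleated cells, in which the mice cannot be told apart, so no test was run between genotypes and every interval below covers counting error only.

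Stromal cells of skeletal muscle build and repair the connective tissue between myofibers. They include fibroblasts, which secrete collagens and other matrix proteins, and fibroadipogenic progenitors (FAPs), which support muscle stem cells after injury and can turn into matrix-producing cells or adipocytes. Spp1 encodes osteopontin, a secreted matricellular protein that binds integrins and CD44. The usual markers are Pdgfra, a receptor for platelet-derived growth factor, the fibrillar collagen genes Col1a1 and Col3a1, and Dcn and Lum, which encode small proteoglycans that bind collagen fibrils.

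The markers could not be used to check the name of the clusters, because the levels of single genes were not analysed here. The name stromal rests on cell numbers. Of all 1048575 sets of the 20 clusters, 1 set had the listed number of stromal cells in both genotypes, and it comprised clusters 0, 2, 6 and 17. The finer classes from the separate subclustering of Pdgfra-positive cells, among them FAPs, fibroblasts and activated fibroblasts, were not analysed here, and no cell of the table carries such a name. The 2 clusters are therefore called by number and not as FAPs or fibroblasts.

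Cluster 0 was the larger of the 2 clusters in each library, but its lead was wider in mdx. In mdx it held 65.2% of the 774 cells of the 2 clusters (95% exact interval 61.8 to 68.6), and in cKO it held 53.8% of 2910 cells (51.9 to 55.6). There were thus 1.88 cells of cluster 0 for each cell of cluster 2 in mdx (95% log interval 1.62 to 2.18) and 1.16 in cKO (1.08 to 1.25). The first ratio was 1.61 times the second (1.37 to 1.90), a difference beyond counting error. Measured against all cells of a library, the cKO share exceeded the mdx share 2.08-fold for cluster 0 (1.89 to 2.29) and 3.36-fold for cluster 2 (2.96 to 3.81). The 4 stromal clusters together held 2131 of 7156 mdx cells and 3025 of 10657 cKO cells. Of these stromal cells, cluster 0 made up 23.7% in mdx and 51.7% in cKO, and cluster 2 made up 12.6% and 44.5%. Stromal cluster 6 held 1277 mdx cells and 43 cKO cells. Shares of 1 library depend on each other, so these values do not show which cell type changed in number, and the spread between mice is unknown.

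The composition shifted with the UMIs of a cell. A UMI, or unique molecular identifier, is a short random tag that lets each captured transcript be counted once. Among cells with 20000 UMIs or more, 68 of 70 in mdx and 63 of 66 in cKO belonged to cluster 0. Between 5000 and 10000 UMIs the clusters were close to equal in mdx, where cluster 0 held 53.7% of 387 cells (48.6 to 58.8), and cluster 2 was ahead in cKO, where cluster 0 held 44.4% of 1252 cells (41.6 to 47.2). Between 2500 and 5000 UMIs the libraries stood furthest apart, with cluster 0 at 79.8% of 104 cells in mdx (70.8 to 87.0) and at 52.8% of 900 cells in cKO (49.5 to 56.1). Under 2500 UMIs cluster 0 held 59.7% of 320 cells in cKO, again more than in the middle of the range, but 52.6% of 38 cells in mdx (35.8 to 69.0), too few to place against the middle. The rise above 10000 UMIs was thus common to both libraries, with 72.0% of 175 cells in mdx and 75.3% of 372 in cKO at 10000 to 20000 UMIs.

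**Figure D1:**
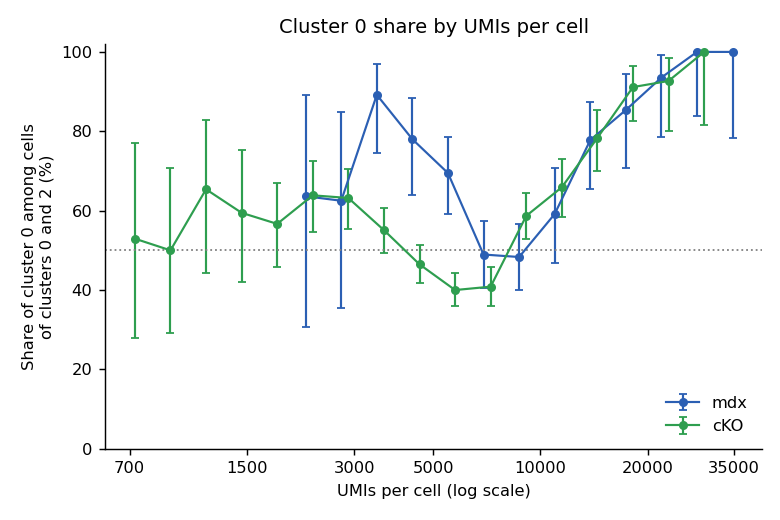
Share of cluster 0 among the cells of clusters 0 and 2 (y axis, percent) in bins of UMIs (log x axis, UMIs in a cell), drawn in blue for mdx and in green for cKO. Points are bins with 10 or more cells, bars are 95% exact binomial intervals and the dotted line marks equal numbers. The lowest shares were 48.3% in mdx (7943 to 10000 UMIs) and 40.0% in cKO (5012 to 6310 UMIs).

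When both libraries were given the same distribution of UMIs, a comparison added after the data had been seen, cluster 0 held 64.6% in mdx and 58.9% in cKO. The gap between the libraries was then narrower than in the unmatched shares but kept its direction. Since cKO cells held fewer UMIs at each quartile of both clusters, equal UMIs do not mean equal positions within a cluster.

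Cluster 0 and cluster 2 had nearly the same median number of UMIs and differed in spread. In mdx the median was 8251 UMIs in cluster 0 and 7859 in cluster 2, a ratio of 1.05, and in cKO it was 5685 and 5436, a ratio of 1.05 as well. The quartiles of cluster 0 were 5536 and 13894 UMIs in mdx and 3672 and 9261 in cKO. Those of cluster 2 lay inside them, at 6286 and 9411 UMIs in mdx and 4011 and 6889 in cKO. The ratio of the upper to the lower quartile was 2.51 in mdx and 2.52 in cKO for cluster 0, against 1.50 and 1.72 for cluster 2. Between the quartiles the wider spread of cluster 0 therefore lay on both sides of a shared centre, in both libraries. Among the cells within the stated limits on genes and mitochondrial UMIs, it was not seen. In mdx the ratio was then 1.55 in 95 cells of cluster 0 and 2.97 in 41 cells of cluster 2. In cKO it was 1.77 in 577 cells and 1.76 in 432 cells. The highest mitochondrial share was 9.85% in cluster 0 and 9.94% in cluster 2, under the stated limit of 20%. Those limits thus removed only cells with more than 1800 genes, and so cut the upper side of UMIs. These ratios therefore do not describe the spread of the whole clusters.

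The upper side carried most of the wider spread of cluster 0. The 90th percentile of UMIs was 22641 in cluster 0 and 11689 in cluster 2 in mdx (ratio 1.94) and 14914 and 9030 in cKO (ratio 1.65). On the lower side the 10th percentiles were 3712 and 3766 UMIs in mdx (ratio 0.986) and 2240 and 2571 in cKO (ratio 0.872). At the 5th percentile the order turned in mdx, where cluster 0 had 2846 UMIs and cluster 2 had 2006 (ratio 1.42), but not in cKO, where they had 1742 and 1853 (ratio 0.940). In mdx the lowest cells of cluster 2 thus reached lower than those of cluster 0. Cells with 10000 UMIs or more made up 38.4% of cluster 0 and 19.0% of cluster 2 in mdx, and 21.9% and 7.06% in cKO. The largest cell held 51485 UMIs in cluster 0 and 23925 in cluster 2 in mdx, and 49737 and 21873 in cKO. Because of this tail the ratio of means exceeded that of medians, at 1.38 in mdx and 1.28 in cKO. No doublets were called, and cells with many UMIs may include doublets, whose part in the tail was not tested. Without the top 5% of cells by UMIs, taken per library, the ratio of medians was 0.907 in mdx and 0.955 in cKO. This cut kept 82.2% of cluster 0 and 97.8% of cluster 2 in mdx, and 88.1% and 98.3% in cKO. It was made on UMIs and fell mainly on cluster 0, so a lower ratio was built in.

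**Figure D2:**
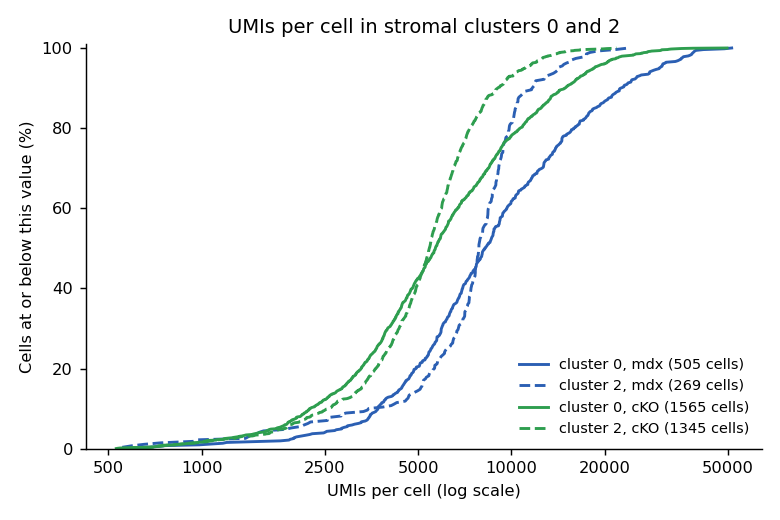
Percent of cells at or below a number of UMIs (y axis) against the UMIs of the cell (log x axis). Lines are solid for cluster 0 and dashed for cluster 2, blue for mdx and green for cKO. In each library the 2 curves cross near the middle, close to the medians (8251 and 7859 UMIs in mdx, 5685 and 5436 in cKO), and cluster 0 rises more slowly between the quartiles. In mdx they cross again at the low end, where the 5th percentile is 2846 UMIs in cluster 0 and 2006 in cluster 2.

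Among the 20 clusters of each library, cluster 0 ranked 5th and cluster 2 ranked 6th in median UMIs in both mdx and cKO. In the ratio of quartiles cluster 0 ranked 7th and cluster 2 ranked 18th in both. Of the other stromal clusters, cluster 6 had a ratio of quartiles of 2.15 in mdx and 2.68 in cKO, and cluster 17 had 3.18 and 2.46. Cluster 2 was thus the most even of the 4 stromal clusters in UMIs. Together the 2 clusters carried 12.9% (cluster 0) and 4.98% (cluster 2) of all UMIs of the mdx library and 19.4% and 13.0% of those of cKO.

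Both clusters held more UMIs per cell in mdx. The ratio of the mdx to the cKO median was 1.45 in cluster 0 and 1.45 in cluster 2. In cluster 0 the ratio was 1.66 at the 10th percentile, 1.51 and 1.50 at the quartiles and 1.52 at the 90th. In cluster 2 it was 1.46 at the 10th percentile, 1.57 at the lower quartile and 1.29 at the 90th. The mdx and cKO cells of both clusters overlapped widely, with the cKO upper quartile above the mdx lower quartile in each. The limits on genes and mitochondrial UMIs stated in the methods keep a minority of both clusters. Among the cells kept, the ratio of medians was 1.17 in cluster 0 and 0.765 in cluster 2. Because genes follow UMIs, the limit of 1800 genes cuts the quantity compared here. Those limits kept 15.2% of cluster 2 in mdx and 32.1% in cKO, so these ratios do not compare whole clusters. Over all cells of a library the medians ran the other way, at 4154.5 UMIs in mdx and 4696 in cKO. Whether the number of reads per cell, the preparation or the RNA content of the cells moved with the genotype cannot be told apart with 1 library each.

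The number of genes detected followed the UMIs. Cluster 0 had a median of 2603 genes in mdx and 2114 in cKO, and cluster 2 had 2510 and 2058, so the clusters differed 1.04-fold in mdx and 1.03-fold in cKO. Across the cells of a cluster in 1 library, the logarithm of genes and that of UMIs were correlated at Pearson's r of 0.983 to 0.987 (269 to 1565 cells that share a library, and genes cannot exceed UMIs). To compare cells of equal depth, the 4 groups were matched in bins of UMIs, which left 254 cells' worth of weight per group. At matched UMIs the ratio of cluster 0 to cluster 2 in median genes was 0.995 in mdx and 0.992 in cKO. With wider bins it was 0.992 in mdx and turned to 1.04 in cKO, so the direction in cKO depends on the bins. Bin by bin, cluster 0 had the fewer genes in 12 of 12 UMI bins in cKO (ratios 0.937 to 0.996) and in 3 of 6 in mdx (0.974 to 1.04).

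The libraries did differ in genes at equal UMIs. At matched UMIs cluster 0 had 2504 genes in mdx and 2612 in cKO (ratio 0.958), and cluster 2 had 2516 and 2633 (ratio 0.956). The mdx median was the lower in 11 of 11 UMI bins of cluster 0 and in 6 of 6 of cluster 2, counting bins with 10 or more cells of each library. The ratios per bin were 0.903 to 0.989 in cluster 0 and 0.896 to 0.983 in cluster 2. At equal UMIs the mdx cells of both clusters thus gave fewer different genes. Without matching the direction was the opposite, with mdx 1.23-fold higher in cluster 0 and 1.22-fold higher in cluster 2.

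**Figure D3:**
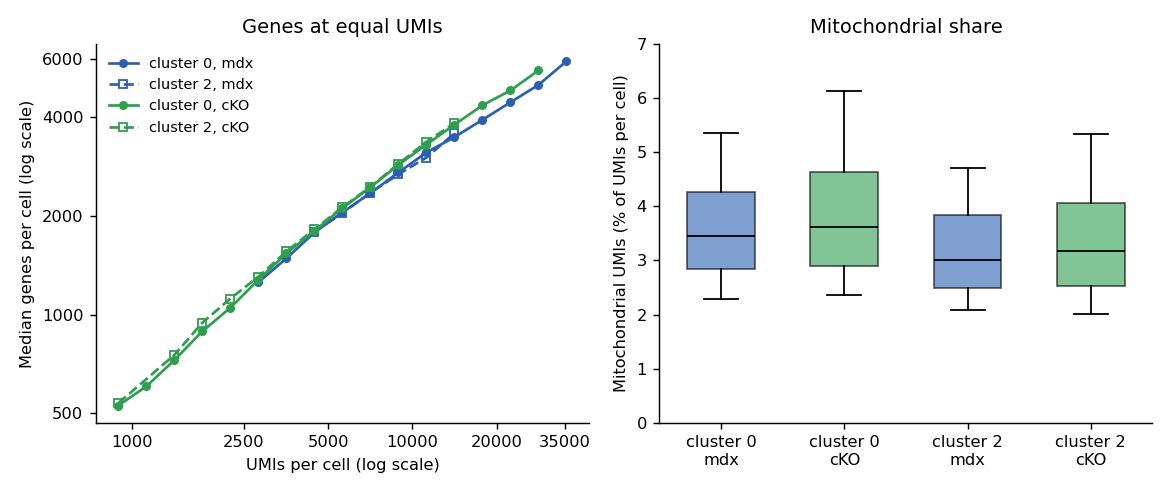
Left, median genes per cell (y axis, log scale) in bins of UMIs (log x axis) that hold 10 or more cells of the cluster. Right, percent of UMIs that were mitochondrial in each cell, as median (line), quartiles (box) and 10th and 90th percentiles (whiskers). Blue is mdx and green is cKO. At equal UMIs the mdx curves lie below cKO (ratio 0.958 in cluster 0 after matching) and in cKO cluster 0 lies slightly below cluster 2 (ratios 0.937 to 0.996), while the mitochondrial medians are higher in cluster 0 (3.46% and 3.62%) than in cluster 2 (3.02% and 3.18%).

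Mitochondrial transcripts, which come from the genome of the mitochondria themselves, took a larger share of the UMIs in cluster 0. The median share per cell was 3.46% in cluster 0 (quartiles 2.85 to 4.27) and 3.02% in cluster 2 (2.49 to 3.84) in mdx. In cKO it was 3.62% (2.90 to 4.63) and 3.18% (2.53 to 4.06). The difference between the clusters was 0.440 percentage points in mdx and 0.441 in cKO, small beside the quartiles. It was 0.410 in mdx and 0.332 in cKO at matched UMIs. The highest share of a cell was 9.85% in cluster 0 and 9.94% in cluster 2, so cells above these values are not covered. Cells with at least 5% mitochondrial UMIs made up 13.1% of cluster 0 (95% exact interval 10.3 to 16.3) and 7.06% of cluster 2 (4.31 to 10.8) in mdx, and 19.0% (17.1 to 21.0) and 13.0% (11.3 to 14.9) in cKO.

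Along the range of UMIs the order was not the same everywhere. In cKO the median of cluster 0 was above that of cluster 2 in 12 of 12 UMI bins, and in mdx it was above in 4 of 6. The difference was widest in cKO cells with few UMIs. Under 2500 UMIs the median was 5.35% in 191 cKO cells of cluster 0 and 4.12% in 129 cells of cluster 2. In mdx these classes held 20 and 18 cells, with medians of 3.72% and 3.25%. Between the libraries the difference of the medians, mdx minus cKO, was -0.160 percentage points in each cluster, and at matched UMIs it was -0.112 in cluster 0 and -0.190 in cluster 2. Across UMI bins the mdx median was higher in 6 of 11 bins of cluster 0 and in 3 of 6 of cluster 2, so no steady direction was seen between the genotypes.

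Nearly all cells of both clusters scored low for the cell cycle. The S score stands for genes used in DNA replication and the G2M score for genes used in mitosis, each relative to control genes, and a cell with both scores below 0 was called G1. The median S score was -0.0717 in cluster 0 and -0.0691 in cluster 2 in mdx, and -0.0626 and -0.0667 in cKO. The median G2M score was -0.108 and -0.109 in mdx, and -0.101 and -0.108 in cKO. These medians differed by at most 0.00658 between the clusters, against SDs over cells of 0.0505 to 0.151. The centres of the 2 clusters therefore lay together, and the clusters differed in the cells far from the centre.

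Cells above 0.2 on the higher of the 2 scores were more frequent in cluster 0 in both libraries. They numbered 21 of 505 cells in mdx, which is 4.16% (95% exact interval 2.59 to 6.29), and 83 of 1565 in cKO, which is 5.30% (4.25 to 6.53). In cluster 2 they numbered 3 of 269 cells in mdx, or 1.12% (0.231 to 3.22), and 13 of 1345 in cKO, or 0.967% (0.516 to 1.65). The share in cluster 0 was thus 3.73 times that in cluster 2 for mdx (1.12 to 12.4) and 5.49 times for cKO (3.07 to 9.80). Cluster 0 held 104 of the 120 such cells of the 2 clusters. The size of this excess depends on cells with many UMIs and genes. Without the top 5% of cells by UMIs the share in mdx was 0.964% in cluster 0 and 0 of 263 cells in cluster 2, which allows up to 1.14%, and in cKO it was 1.67% and 0.681%. Among cells inside the stated limits on genes and mitochondrial UMIs, the share in mdx was 1.05% of 95 cells in cluster 0. In cluster 2 it was 0 of 41 cells, which allows up to 7.32%. In cKO it was 0.347% of 577 cells in cluster 0 and 0.463% of 432 cells in cluster 2. These shares rest on very few high-scoring cells, so no order of the clusters is read from them. Of the 3684 cells, 147 lay above 0.1, 120 above 0.2 and 107 above 0.3, so 40 lay between 0.1 and 0.3. For scale, 95.4% of mdx and 97.3% of cKO cells of cluster 11, in which every cell was called S or G2M, lay above 0.2, as did 10.7% and 8.46% of all cells. In stromal cluster 17 none did, of 80 mdx and 72 cKO cells, which allows shares of up to 3.75% and 4.17% (3 counts, the limit used here for a count of 0 in place of the exact interval), and in cluster 6 there were 2 of 1277 and 5 of 43.

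The high-scoring cells of cluster 0 were of several kinds. In mdx 5 were above 0.2 on the S score alone, 10 on the G2M score alone and 6 on both. In cKO the numbers were 24, 34 and 25. Both scores were thus represented in each library. In mdx their median mitochondrial share was 3.69%, next to 3.44% in the other cells of the cluster, and in cKO it was 3.47%, next to 3.64%. Clusters were made from expression in these cells, which included cell cycle genes where those were among the variable genes, so the difference between the clusters in these scores is a description and not a test.

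**Figure D4:**
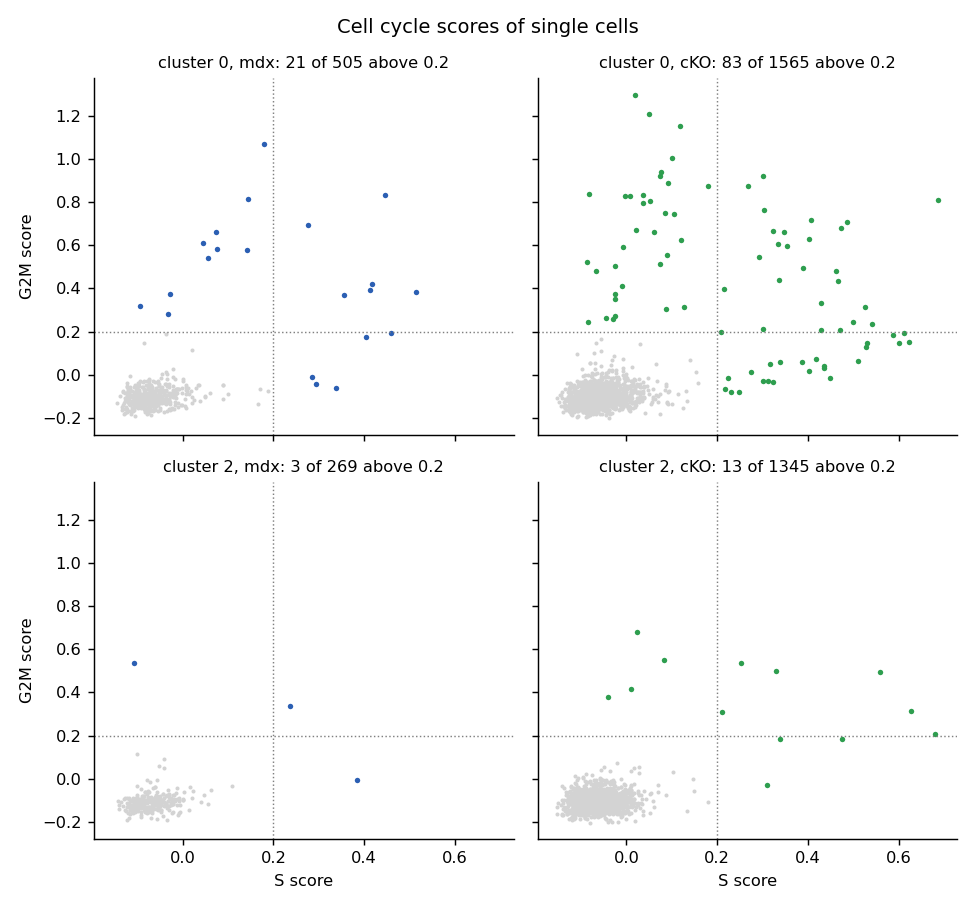
S score (x axis) against G2M score (y axis) of each cell, in 1 panel per cluster and library, where grey points are cells at or below 0.2 on both scores, coloured points are cells above 0.2 on at least 1 (mdx blue, cKO green) and dotted lines mark 0.2. Most cells form 1 compact group below 0 on both scores, and the coloured cells number 21 and 83 in cluster 0 but 3 and 13 in cluster 2.

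Phase calls gave a larger number of S and G2M cells than the scores did. The share of cluster 0 called S or G2M was 11.3% for mdx (8.66 to 14.4) and 15.7% for cKO (13.9 to 17.6), and that of cluster 2 was 7.06% (4.31 to 10.8) and 8.25% (6.84 to 9.85). At matched UMIs it was 6.61% and 11.3% for cluster 0, and 6.50% and 8.67% for cluster 2. Of the called cells of cluster 0, 36 of 57 in mdx and 162 of 245 in cKO had no score above 0.2. The call needs only 1 score above 0, so no cycling is read from it. RNA released from other cells can add to these scores in droplet data, and its part was not tested.

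High scores went with many UMIs. The median of the cells of cluster 0 above 0.2 was 31565 UMIs for mdx and 18658 for cKO, whereas the other cells of the cluster had medians of 8030 and 5477. These are ratios of 3.93 and 3.41. Cells under 10000 UMIs had a share of 0.322% in mdx and 1.06% in cKO, and cells with 10000 UMIs or more had 10.3% and 20.4%. In cluster 2 the same pattern appeared with fewer cells, with 0 of 218 below 10000 UMIs (which allows up to 1.38%) and 3 of 51 above in mdx, and with 5 of 1250 and 8 of 95 in cKO. At 10000 to 20000 UMIs, where both clusters had cells, the share was 3.97% (5 of 126) in cluster 0 and 4.08% (2 of 49) in cluster 2 in mdx, and 11.1% (31 of 280) and 8.70% (8 of 92) in cKO, each pair within counting error. After matching on UMIs the share was 0.875% in cluster 0 and 1.18% in cluster 2 in mdx, and 3.58% and 2.22% in cKO. Among the cells kept, the excess of cluster 0 was thus not seen in mdx and was smaller in cKO. The match leaves out 42 cells of cluster 0 in each library, among them every cell above 25119 UMIs, a number that no cell of cluster 2 reached. In mdx the cells of cluster 0 above 0.2 had a median of 31565 UMIs, so the match leaves out most of them. The matched mdx shares therefore rest on few such cells and cannot describe the excess in the whole cluster.

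Among cells with 10000 UMIs or more, the share in cluster 0 was higher in cKO at a given number of UMIs. The ratio of cKO to mdx was 2.79 at 10000 to 20000 UMIs (1.11 to 7.01). Under 10000 UMIs it was 3.31 (0.434 to 25.2), with 1 mdx cell above 0.2. That cell lay under 2500 UMIs, where 1 of 20 mdx cells and 1 of 191 cKO cells were above 0.2. At 20000 UMIs or more, 39 of 63 cKO cells (61.9%, 95% exact interval 48.8 to 73.9) and 15 of 68 mdx cells (22.1%, 12.9 to 33.8) lay above 0.2, a ratio of 2.81 (1.72 to 4.57). The ratios at high UMIs depend on how depth is treated. To scale depth, cKO UMIs were multiplied by 1.46, the ratio of mdx to cKO medians over the 2 clusters. At 20000 scaled UMIs or more, 60 of 182 cKO cells (33.0%, 26.2 to 40.3) lay above 0.2 and the ratio was 1.49 (0.913 to 2.45). For all cells with 10000 UMIs or more, scaling lowered the ratio from 1.98 (1.24 to 3.15) to 1.23 (0.771 to 1.95). Among the top 10% of the cluster by UMIs, taken per library, 57 of 157 cKO cells (36.3%) and 15 of 51 mdx cells (29.4%) lay above 0.2. That is a ratio of 1.23 (0.769 to 1.98). The comparisons with scaled UMIs and with the top 10% were added after the data had been seen. Over the whole of cluster 0 the ratio of cKO to mdx was 1.28 (0.799 to 2.04), and in cluster 2 it was 0.867 (0.249 to 3.02). Both were within counting error. With 1 library per genotype, a difference between the genotypes was not tested, and more cells would not change that.

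**Figure D5:**
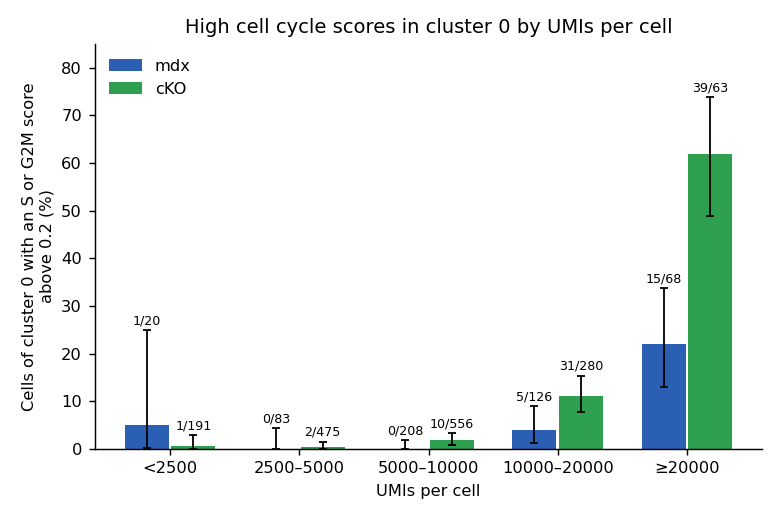
Percent of cells of cluster 0 with an S or G2M score above 0.2 (y axis) in classes of UMIs (x axis), for mdx (blue) and cKO (green). Bars start at 0, error bars are 95% exact binomial intervals and the numbers give cells above 0.2 over cells in the class. The share reaches 22.1% in mdx and 61.9% in cKO at 20000 UMIs or more.

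The limits on genes per cell stated in the methods would remove most of both clusters. Of cluster 0, 410 of 505 mdx cells (81.2%) and 988 of 1565 cKO cells (63.1%) had more than 1800 genes, and of cluster 2, 228 of 269 (84.8%) and 913 of 1345 (67.9%). These limits kept 18.8% of cluster 0 and 15.2% of cluster 2 in mdx, and 36.9% and 32.1% in cKO. The deposited cells were therefore used without them.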

How the data were processed

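Single cells were captured with the 3' chemistry of 10x Genomics from the pooled muscles of each genotype. Cell Ranger 7 and mm10 are named in the submitters' processing notes, and the methods name Seurat for combining and clustering the libraries. For the settings of the alignment, nothing is given in the sources used here. The deposited table gives, for each cell, the authors' raw UMI count and gene count, the mitochondrial fraction of UMIs (multiplied into percent here), an S score and a G2M score, the phase called from them, and a cluster number at resolution 0.5. Summed over its 7156 cells the mdx library held 43185486 UMIs, and the cKO library held 59240298 over 10657. The libraries are named Neg and Pos in the table and were read as Cre-negative (mdx) and Cre-positive (cKO).

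Medians and percentiles were taken over the cells of each cluster and library, with exact (Clopper-Pearson) 95% intervals for shares and log intervals for ratios of shares. Differences between clusters are descriptions, since the clusters were made from these cells. Of the 20 barcodes found in both libraries, 11 cells lay in clusters 0 and 2, and leaving them out moved no result outside its counting interval. As thinning needs counts per gene, cells of equal depth were instead matched in bins of 0.1 in log10 UMIs. Each of the 4 groups was weighted to the smallest of the 4 counts in a bin. The procedure was tested on simulated data for medians only, and not for shares of rare high-scoring cells. No gene was named by a value, because the rule for named genes needed expression per gene. The clusters, measures and alternatives were chosen with earlier results of these data known. Python 3.11.15 was used with SciPy 1.17.1, NumPy 2.4.6, pandas 2.3.3 and Matplotlib 3.10.9.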

Additional observations from a re-analysis of the deposited data

Results flagged for a closer look

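The difference between the clusters in the median S score had opposite signs in the 2 libraries. Cluster 0 minus cluster 2 was -0.00259 in mdx and 0.00404 in cKO. The difference between the libraries was not tested, as each genotype has 1 library, and both values are small beside the SD of the S score over cells, which was 0.0505 to 0.0938.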

How the results depend on the processing

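With 1 library per genotype there is no spread between mice, and leaving out a replicate could not be run. No paired analysis was possible because each genotype has 1 library and no result comes from a test. A value is said to have moved where it left the 95% counting interval of the reported value, or for medians and quartile ratios its interval over cells. The cause of each move was not tested. Requiring 1000 UMIs or 500 genes, or dropping barcodes found in both libraries (added after seeing the data), moved no value. The other cluster column gave every cell the same number, so using it could not move a value. The planned match for the share of cluster 0 among the 2 clusters was not run, because matching the 4 groups fixes it by construction, and with 1 distribution of UMIs in both libraries it was 58.9% in cKO.

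Values below are for mdx and then cKO unless named. Without the top 5% of cells by UMIs, cluster 0 held 61.2% and 51.0% of the 2 clusters and 6.10% and 13.6% of all cells, its S or G2M share was 7.71% and 11.7% and its quartile ratio of UMIs 1.98 and 2.26. The ratio of cluster 0 to cluster 2 was then 0.907 and 0.955 for UMIs and 0.946 and 0.961 for genes. The cut fell mainly on cluster 0, so lower ratios were built in. Under 5% mitochondrial UMIs the shares of all cells were 8.06% (mdx cluster 0), 4.59% (mdx cluster 2) and 13.9% (cKO cluster 2), and the cKO ratio of median UMIs was 1.11.

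Within the limits stated in the methods, cluster 0 held 69.9% and 57.2% of the 2 clusters. The shares of all cells were 2.10% and 10.99% for cluster 0 and 0.908% and 8.23% for cluster 2. The S or G2M share was 18.9% in mdx cluster 0, 19.5% in mdx cluster 2 and 12.3% in cKO cluster 2. The quartile ratio was 1.55 and 1.77 in cluster 0 and 2.97 in mdx cluster 2. The ratio of cluster 0 to cluster 2 was 1.43 and 0.939 for UMIs and 1.21 and 0.959 for genes, and the mitochondrial difference was 0.619 in cKO. The ratio of mdx to cKO median UMIs was 1.17 in cluster 0 and reversed to 0.765 in cluster 2. The limit of 1800 genes cuts the cells with many UMIs, so these values for UMIs and genes do not compare whole clusters.

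With means in place of medians the ratio of cluster 0 to cluster 2 was 1.38 and 1.28 for UMIs and 1.16 and 1.12 for genes, the G2M difference was 0.0221 and 0.0289 and the S difference was 0.0173 in cKO. By the 90th to 10th percentile ratio the spread of cluster 0 was 1.90 times that of cluster 2 in cKO. The S or G2M share of cluster 0 was 6.61% and 11.3% after matching on UMIs, 7.09% and 11.9% with wider bins and 5.75% and 9.90% with cKO UMIs scaled, and wider bins gave a G2M difference of 0.000747 in cKO. When cells above a score of 0.1, 0.2 or 0.3 were counted in place of the phase call, cluster 0 had 5.54%, 4.16% and 3.56% in mdx and 6.13%, 5.30% and 4.66% in cKO. Cluster 2 then had 1.86%, 1.12% and 1.12% in mdx and 1.34%, 0.967% and 0.967% in cKO. For the share of cells above 0.2 itself, 20 values moved and 28 did not, and the thresholds of 0.1 and 0.3 moved none. That count includes the shares in cells of many UMIs and in cells under and above 10000 UMIs. Those are parts of a cluster and not other ways of processing, so the count does not measure how steady the share is.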
